A study of Oryza sativa with 12 samples.

Results

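The genes described here are 78 of the 40424 identifiers counted in rice seedling shoots, those whose transcripts were lower after 4 h of chilling that ended at dusk and higher after 4 h of chilling that ended at dawn. RNA was sequenced from the above-ground parts of Oryza sativa ssp. indica, cultivar 93-11, at the three-leaf stage, grown at 28 °C under a cycle of 12 h light and 12 h dark. Zeitgeber time (ZT) counts hours from lights-on. NT12 seedlings stayed at 28 °C and were harvested at ZT12, and CT12 seedlings were at 13 °C from ZT8 to ZT12. NT24 seedlings stayed at 28 °C and were harvested at ZT24, and CT24 seedlings were at 13 °C from ZT20 to ZT24. Seedlings were 10 days old when treated and were harvested on day 11. Each of these 4 groups had 3 biological repeats of 5 plants of the same cultivar, all titled WT, and the labels name no transgene or mutation. The labels do not say if lighting was kept on this cycle while plants were chilled.

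The members were chosen by the measured group means themselves. Counts were divided by median-of-ratios size factors to give normalised counts, and the level of a gene in a group was log2 of the mean normalised count plus 1. A member had a level of at least 8 in its highest group (a mean of at least 255 normalised counts), a level at least 1 lower in CT12 than in NT12, and a level at least 1 higher in CT24 than in NT24. A difference of 1 is a 2-fold change. Of the 16290 genes that reached the level of 8, 1588 were at least 2-fold lower in CT12 and 2368 at least 2-fold higher in CT24, and 78 were both. The reverse pattern, higher in CT12 and lower in CT24, was met by 192 genes, a fall at both times by 781 and a rise at both times by 1265. The chilling responses of the members are therefore a description of the choice and carry no test here.

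Plant leaves hold a circadian clock, a set of transcriptional repressors and activators made at different times of day that regulate each other and, through their targets, set a daily time of expression for many genes. Responses to cold in plants are known to depend on the time of day at which the cold arrives, which is called gating. In a warm-season cereal such as rice, 13 °C is a chilling temperature that slows growth without freezing the tissue. A gene with opposite responses at opposite ends of the day is one kind of gated pattern.

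The files pair no identifier with a gene name, and 0 of the 40424 identifiers matched the reference gene table, so no member can be placed among clock, cold or photosynthesis genes, and the tissue could not be checked by markers. Of the members, 72 carried identifiers of the form OsR498G and digits, and 6 (7.69%) carried a second form of identifier, against 2.78% of the genes that reached the level of 8. Neither form is explained by the labels. A single pair of members had neighbouring identifiers in sorted order, OsR498G0101540500.01 and the identifier just before it. These neighbours fell by 3.98 and 3.82 at ZT12 and were 2.39 and 1.05 higher in CT24 on the log2 scale. The preceding identifier had 29.4, 19.6 and 297 normalised counts in the CT24 libraries, against 27.6, 135 and 3.02 in NT24. In both genes the chilled and normal libraries overlapped at ZT12 and at ZT24. The statistical fit called neither gene for chilling at either time. Reads shared between near-identical genes, if these were such, cannot be assigned with certainty, as no source states the counting settings.

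Total counts ranged from 42966604 to 52762123 per library and size factors from 0.680 to 1.42, lowest in CT12 and highest in NT12. All 78 members passed the expression filter of the statistical fit. The members together took 0.692% ± 0.0797 of all counts at ZT12 without chilling and 0.130% ± 0.00582 with it (SD, n = 3). At ZT24 the share was 0.105% ± 0.0111 without chilling and 0.337% ± 0.0158 with it. These are shares of library totals, without size factors, and the most abundant members weigh most in them. With libraries scaled by their totals, the median log2 change of all genes tested after chilling was -0.77 at ZT12 and -0.02 at ZT24. Part of the lower share in CT12 is thus common to many genes on that scale, though not to all. There the statistical fit called 13080 of 24700 genes lower in CT12 and 2624 higher. In bulk tissue, fewer cells of a type and less RNA per cell cannot be told apart.

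The falls at ZT12 and the rises at ZT24 were mostly of moderate size. The median log2 difference was -1.54 for CT12 minus NT12, with a lowest value of -4.09, and 1.54 for CT24 minus NT24, with a highest value of 6.76. Over all genes that reached the level of 8 the medians were 0.14 and 0.08. A fall of at least 4-fold at ZT12 was found in 24 members and a rise of at least 4-fold at ZT24 in 25, with 10 members in both counts and 39 in neither. The rise exceeded the fall in 41 members and was smaller in 37. The responses are plotted against each other in the scatter of both chilling differences.

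**Figure D1:**
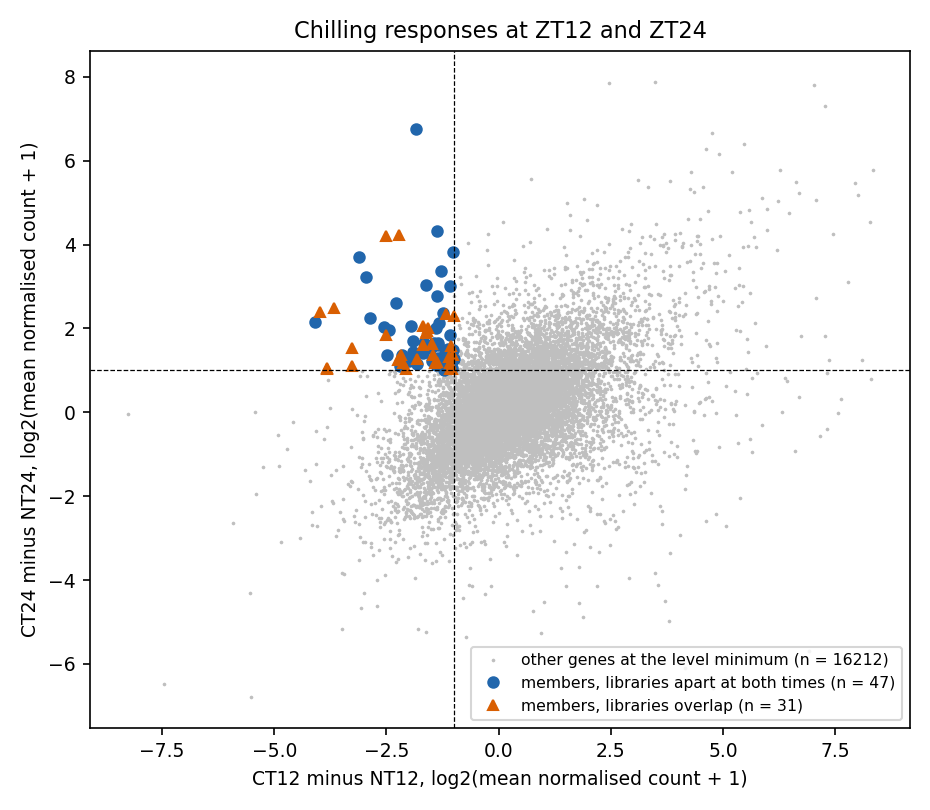
Chilling response at ZT24 (vertical axis) against that at ZT12 (horizontal axis), both as differences in log2(mean normalised count + 1), for all 16290 genes that reached the level of 8; dashed lines mark the thresholds of -1 and 1. The 78 members fill the upper left corner, 47 of them (circles) with chilled and normal libraries apart at both times and 31 (triangles) with overlapping libraries.

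At the edges of the choice, the member closest to the ZT12 threshold had a difference of -1.00013, and the closest gene outside it had -0.998697. At ZT24 the closest values inside and outside were 1.00719 and 0.997538. The lowest highest-group level among members was 8.07, and the closest gene outside had 7.98. In 13 members the fall lay within 0.1 of the threshold and in 7 members the rise did, and 310 genes met both changes at a lower level.

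Libraries of the same group differed in many members, and this splits the set. In 51 of the 78 members every CT12 library lay below every NT12 library, against 23.5% of all genes that reached the level of 8. In 55 members every CT24 library lay above every NT24 library, against 36.6%. Both held in 47 members, against 2.92%, and these shares rest on the values that chose the members. In the other 31 members the libraries overlapped at ZT12, at ZT24 or at both. The coefficient of variation between libraries exceeded 100% in at least 1 group for 21 members (26.9%), against 2.37% of all genes at that level, and all 21 were among the 31 with overlap. It stayed under 50% in every group for 38 members (48.7%), against 88.7%.

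In the 31 members with overlap the same libraries were often high or low. NT12 replicate 1 was the lowest of its group in 24 of them, CT12 replicate 1 in 24, NT24 replicate 3 in 23 and CT24 replicate 2 in 19. CT12 replicate 2 was the highest of its group in 23. Their median level was 53.3 normalised counts in NT12 replicate 1, against 459 and 383 in replicates 2 and 3. In CT12 it was 10.3, 188 and 54.6, in NT24 215, 78.4 and 29.2, and in CT24 552, 148 and 375, in the order of replicates 1 to 3. In the 47 members without overlap the medians differed far less within a group, from 1070 to 1309 in NT12, 319 to 341 in CT12, 200.1 to 264 in NT24 and 536 to 599 in CT24.

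A pattern seen in the data was looked for by name: NT12 replicate 1 lowest, CT12 replicate 2 highest, NT24 replicate 1 highest and CT24 replicate 2 lowest, each in its group. It was present in 14 of the 31 members with overlap, in 3 of the 47 without (6.38%) and in 4.17% of all genes that reached the level of 8. In 11 members it came with a coefficient of variation over 100%, against 1.09% of all genes at that level. In these 11 the median was 17.5, 633 and 654 normalised counts in the NT12 libraries and 2.94, 378 and 44.8 in the CT12 libraries. It was 371, 26.1 and 4.02 in NT24 and 732, 137 and 573 in CT24, so the libraries of every group lay far apart. The pattern was seen in the members with overlap, and its form favours overlap between chilled and normal libraries. These counts are therefore a description, and nothing is read from their excess over all genes. What set these libraries apart was not tested. The map of all members by library shows this block beside the 47 members in which the libraries of a group resemble each other.

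**Figure D2:**
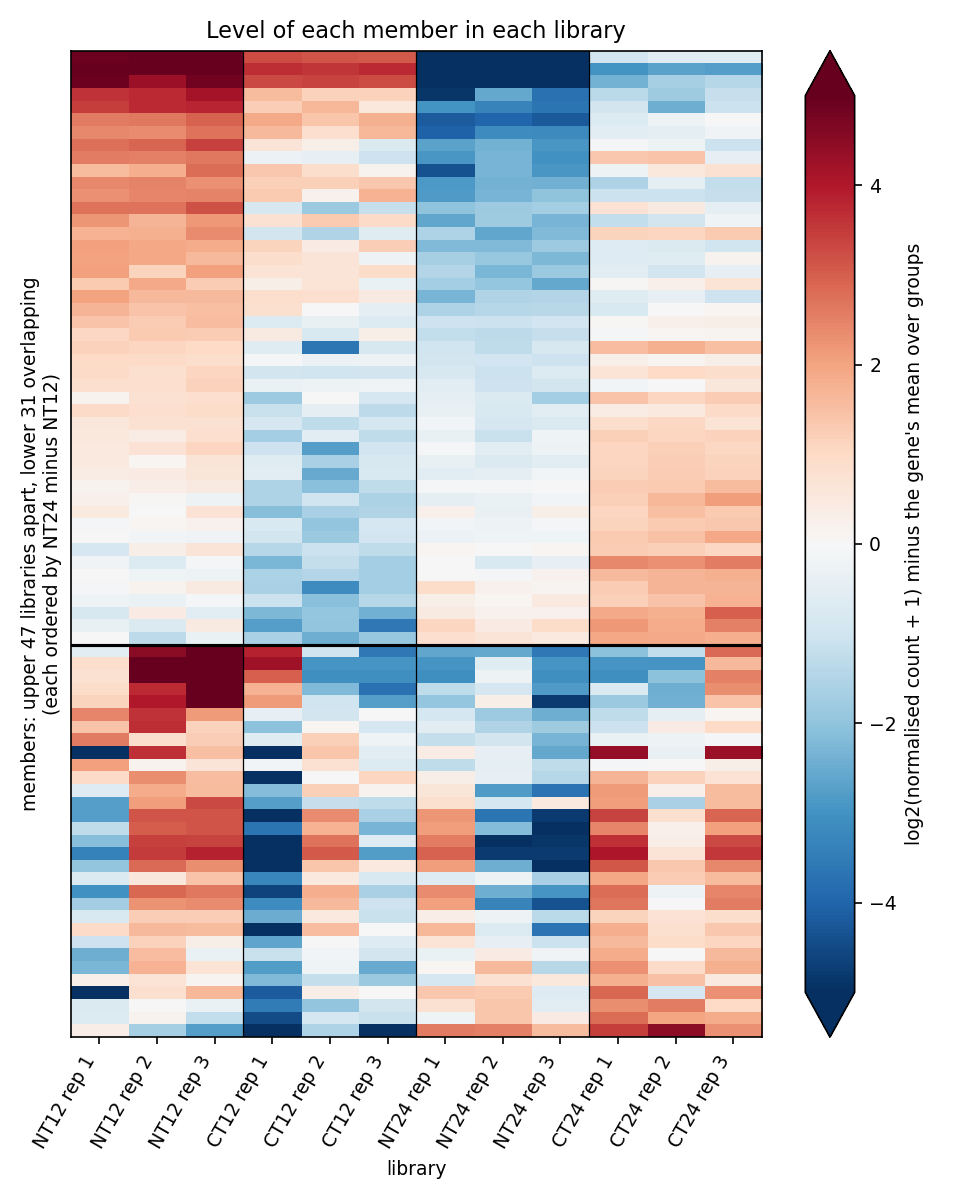
Level of each of the 78 members (rows) in each of the 12 libraries (columns), as log2(normalised count + 1) minus the gene's mean over the 4 groups; colours end at -5 and 5. The upper 47 rows are members without overlap between chilled and normal libraries, the lower 31 rows those with overlap; in the lower block NT12 replicate 1 and CT12 replicate 1 are often far below the other libraries of their group.

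By edgeR's quasi-likelihood test on all 24700 genes kept, 52 members were called lower in CT12 than in NT12, where 20% of all genes tested were (4936 of 24700). In CT24, 48 members were called higher than in NT24, where 21.9% of all genes were, and 54 had a higher response at ZT24 than at ZT12, where 9.24% of all genes did. All 47 members without overlap were called in each of these comparisons. Of the 31 with overlap, 5 were called at ZT12, 1 at ZT24 and 0 at both times. The choice of members used these contrasts, so the calls are listed as a description only.

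The largest fall at ZT12 was that of OsR498G0305340600.01. It had 3771, 3786 and 5191 normalised counts in the NT12 libraries and 331, 158 and 257 in the CT12 libraries, a difference of -4.09 on the log2 scale. In NT24 it had 139, 159.9 and 177 and in CT24 937, 784 and 407, a difference of 2.15. Both pairs of groups were apart. Chilling at dusk left it at 249 ± 86.8 (SD, n = 3), near the 159 ± 19.0 of the normal dawn, while chilling at dawn took it to 709 ± 273, well under the 4249 ± 815 of the normal dusk.

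OsR498G0101540500.01 had the second largest fall, but on uneven libraries. Its normalised counts were 93.4, 673 and 2101 in NT12 and 166, 9.96 and 2.80 in CT12, so that CT12 replicate 1 lay above NT12 replicate 1. In NT24 it had 19.7, 27.2 and 6.03 and in CT24 29.4, 8.27 and 253, and these groups overlapped too. The differences of -3.98 and 2.39 rest on NT12 replicates 2 and 3 and on CT24 replicate 3.

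The largest rise at ZT24 was that of OsR498G0612408600.01, which also had the largest difference between the responses, 8.60 on the log2 scale. It had 10285, 11441 and 11389 normalised counts in NT12 and 3327, 3048 and 2874 in CT12, a fall to 3083 ± 228 from 11038 ± 653 (SD, n = 3). In NT24 each library held 1 read, 3 in all, and in CT24 the libraries held 176, 239 and 231 normalised counts from 682 reads. The ratio of CT24 to NT24 was 214, with an exact 95% interval of 73.1 to 1042 that covers counting error only. The gene was nearly silent at the normal dawn and, after chilling, came to a small part of its dusk level.

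The rise at ZT24 of OsR498G0409483700.01, the second largest on the scale of the choice and the third in the edgeR fit, was similar in kind. It had 16479, 10546 and 15313 normalised counts in NT12 against 5429.7, 5707 and 5316 in CT12. At ZT24 it had 7.90, 4.02 and 9.05 in the unchilled libraries and 106, 172 and 200.4 in the chilled ones. All libraries were apart in both comparisons, with log2 differences of -1.36 at ZT12 and 4.33 at ZT24.

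OsR498G1220946600.01 had the second largest difference between the responses on the scale of the choice, 6.81, with another member close behind at 6.73. The order depends on the scale: in the edgeR fit the other member, with 2 reads in NT24, had 7.79 and OsR498G1220946600.01 had 6.91. Its NT12 libraries held 522, 511 and 553 normalised counts and its CT12 libraries 72.1, 66.0 and 43.4. The NT24 libraries held 10.9, 17.1 and 10.1 and the CT24 libraries 225, 239.8 and 66.5. Both log2 differences were large, -3.11 and 3.70, and CT24 replicate 3 was the low library of its group.

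The most abundant members differed in their daily course. OsR498G1019102900.01 had 19556, 23371 and 29421 normalised counts in NT12 against 6910.0, 2058 and 7272 in CT12. Its NT24 libraries held 13478, 9680.5 and 11758 and its CT24 libraries 29372, 32334 and 28598. Its level after chilling at dawn, 30102 ± 1972, overlapped with the normal dusk level of 24116 ± 4974 (SD, n = 3), and its lowest values were those of CT12. OsR498G0101838600.01 had 38759, 39318 and 48248 normalised counts in NT12 against 23491, 16634 and 21825 in CT12. Its NT24 libraries held 350.3, 404 and 346 and its CT24 libraries 3936, 5258 and 6350.4. In this gene the chilled dusk level stayed above both dawn levels, and chilling at dawn raised the mean 14.1-fold from a level 115-fold under the normal dusk. Both genes had all libraries apart in the chilling comparisons.

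**Figure D3:**
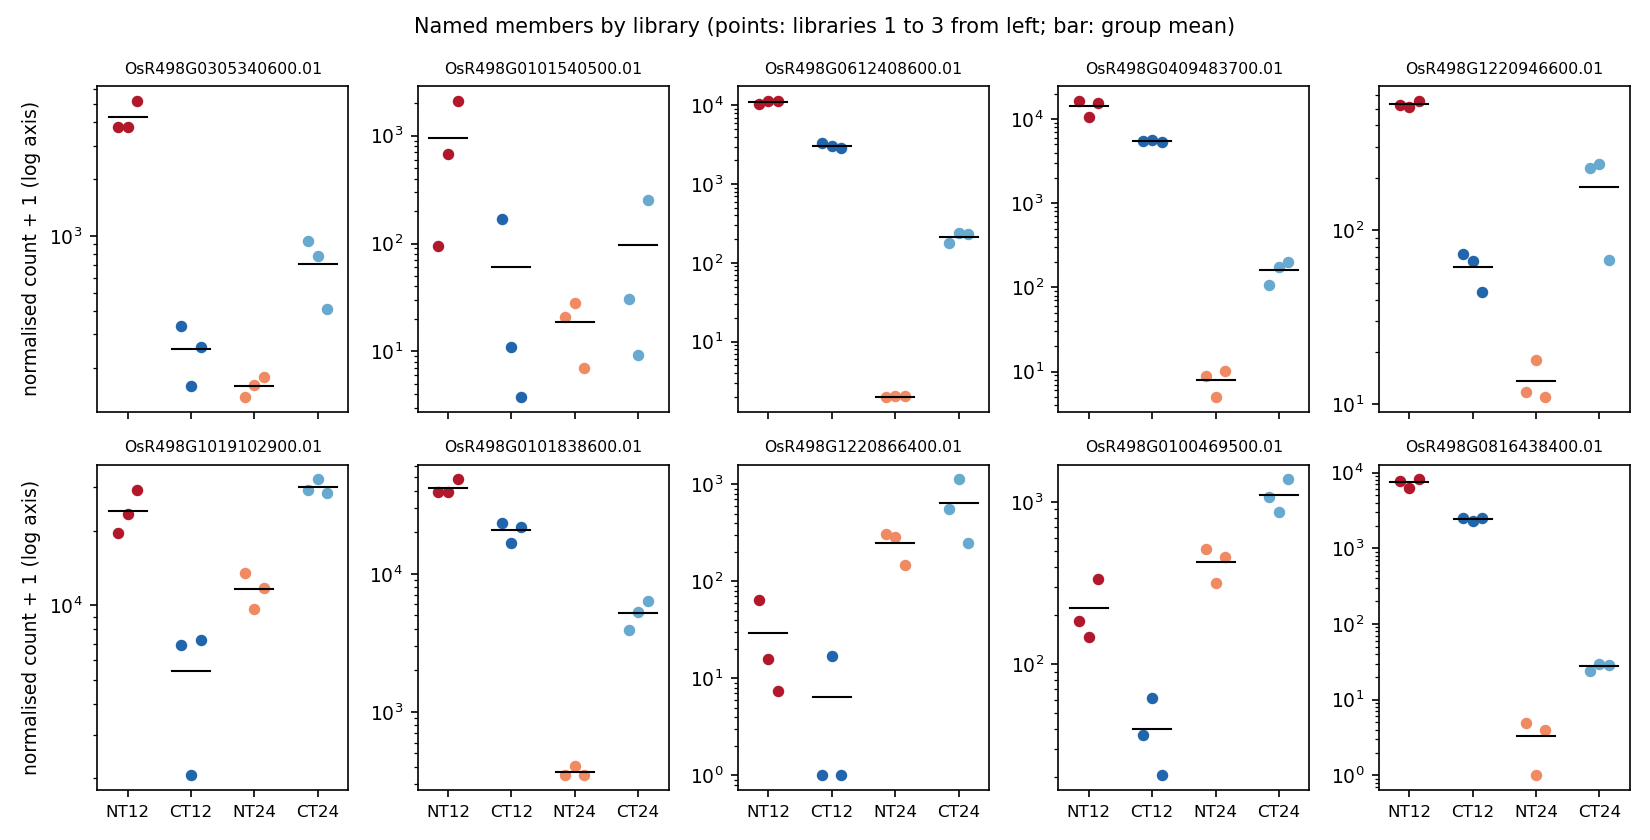
Normalised counts plus 1 on a log axis for the 10 named members in the 4 groups; points are the 3 libraries in order of replicate and bars the group means. OsR498G0612408600.01, OsR498G0409483700.01 and OsR498G0816438400.01 have fewer than 10 normalised counts in every NT24 library, and OsR498G0101540500.01 and OsR498G1220866400.01 have overlapping libraries.

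The daily course of the members at 28 °C and after chilling was compared next, as the difference between ZT24 and ZT12 within each temperature. Each group was a separate set of seedlings, and chilled seedlings were at 13 °C for 4 h only. No seedling was followed from dusk to dawn. The difference after chilling minus the difference at 28 °C equals the quantity that chose the members and is at least 2 in all of them. Every member is therefore at least 2-fold lower in NT24 than in NT12, at least 2-fold higher in CT24 than in CT12, or both. At 28 °C, 55 of the 78 members were at least 2-fold lower in NT24 than in NT12, 19 were within 2-fold and 4 were at least 2-fold higher. After chilling, 14 were at least 2-fold lower in CT24 than in CT12, 16 were within 2-fold and 48 were at least 2-fold higher. At 28 °C, the 55 lower members were 70.5% of the set, against 14.3% of all genes that reached the level of 8, and the 4 higher members 5.13%, against 15.1%. After chilling, the 48 higher members were 61.5%, against 12.4%. The 14 lower members were 17.9%, near the 14.8% of all genes at that level. In the 192 genes with the reverse chilling pattern, 152 were at least 2-fold higher in NT24 than in NT12 and 100 at least 2-fold lower in CT24 than in CT12. In the edgeR fit, 42 members were called lower in NT24 (20.9% of all genes) and 2 higher (23.2%), and 34 were called higher in CT24 than in CT12 (20.3%) and 13 lower (21.8%). These comparisons share libraries with those that chose the members. The choice by itself raises the shares of members lower in NT24 and higher in CT24, and for the reverse pattern it raises the opposite shares. The shares of all genes are given for scale only, and nothing is read from the excess.

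The highest and lowest groups took 4 forms, the only ones that the choice allows. NT12 was the highest group in 41 members and CT24 in 37, and NT24 was the lowest in 43 and CT12 in 35. In 36 members NT12 was highest and NT24 lowest, in 30 CT24 was highest and CT12 lowest, in 7 CT24 was highest and NT24 lowest, and in 5 NT12 was highest and CT12 lowest. The chilled dawn level lay within 2-fold of the normal dusk level in 30 members, at least 2-fold under it in 31 and at least 2-fold over it in 17. The chilled dusk level lay within 2-fold of the normal dawn level in 29, at least 2-fold over it in 30 and at least 2-fold under it in 19. In 23 members both comparisons were within 2-fold.

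Members with a reversed daily order numbered 25: at least 2-fold lower at ZT24 at 28 °C and at least 2-fold higher at ZT24 after chilling. Their median difference was -1.79 at 28 °C and 1.82 after chilling, and OsR498G0305340600.01, OsR498G1220946600.01 and OsR498G1019102900.01 were among them. In 10 of the 25 the libraries were apart at both times, and in 15 they overlapped.

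Members at least 2-fold lower at ZT24 than at ZT12 at both temperatures numbered 14, with libraries apart in 13. By the choice, the fall at 28 °C had to be the larger one in all of these members. Their median difference between ZT24 and ZT12 was -6.37 at 28 °C and -2.29 after chilling, and they were abundant, with a median highest level of 12.42. They included OsR498G0612408600.01, OsR498G0409483700.01 and OsR498G0101838600.01. OsR498G0816438400.01 belonged here as well, with 7844, 6347 and 8153 normalised counts in NT12 and 2496, 2274 and 2529 in CT12. It had 3.95, 0 and 3.02 in NT24 and 23.0, 28.9 and 27.5 in CT24. In all, 15 members were at least 32-fold lower in NT24 than in NT12.

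A further 16 members were at least 2-fold lower in NT24 than in NT12, with a median of -3.65, and within 2-fold between CT12 and CT24, with a median of -0.20. Here 9 had libraries apart, and OsR498G0101540500.01 was among those with overlap. Another 19 members were within 2-fold between ZT12 and ZT24 at 28 °C, with a median of -0.14, and at least 2-fold higher at ZT24 after chilling, with a median of 2.98. Of these, 14 had libraries apart. OsR498G0100469500.01 was among them, with 184, 145 and 334 normalised counts in NT12 against 35.3, 61.0 and 19.6 in CT12. Its NT24 libraries held 510.2, 318 and 456 and its CT24 libraries 1078, 872 and 1379.

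The last 4 members were at least 2-fold higher at ZT24 at both temperatures, with libraries apart in 1. OsR498G1220866400.01 had 62.7, 14.8 and 6.45 normalised counts in NT12 and 0, 16.2 and 0 in CT12, so that those groups overlapped. It had 306, 287 and 148 in NT24 and 552, 1124 and 245 in CT24, which overlapped as well.

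**Figure D4:**
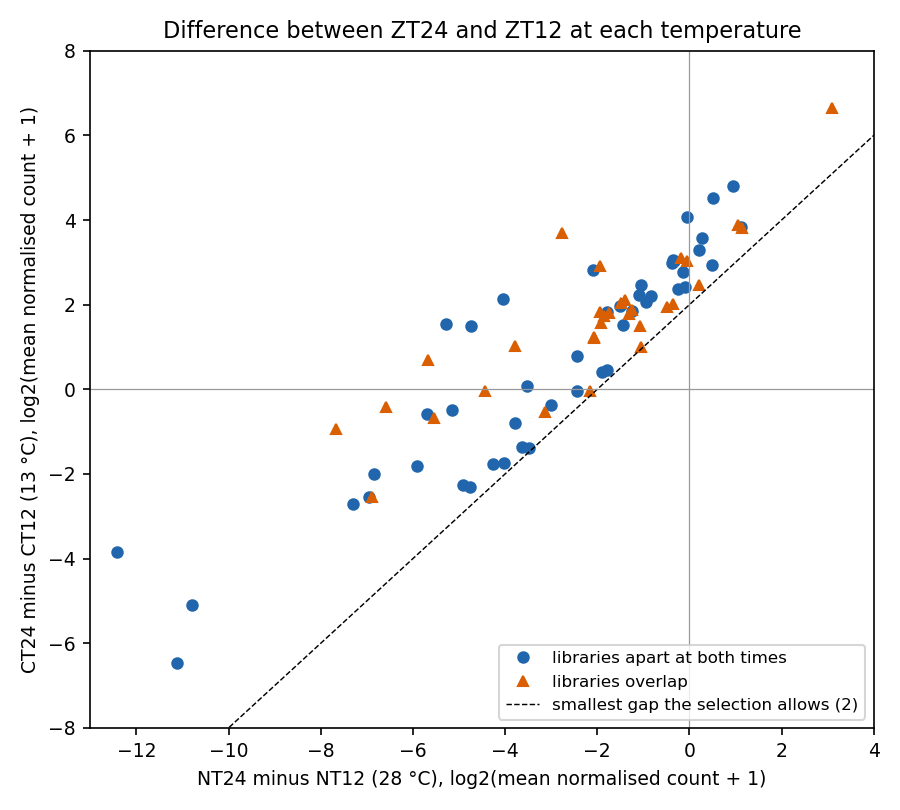
Difference between ZT24 and ZT12 at 13 °C (vertical axis) against that at 28 °C (horizontal axis), in log2(mean normalised count + 1), for the 78 members; circles have libraries apart at both times, triangles overlapping libraries, and the dashed line marks the smallest gap of 2 that the choice allows. The points spread from 3 members between -12.43 and -10.79 at 28 °C to 1 member at 3.09, and 25 members lie at or below -1 on the horizontal and at or above 1 on the vertical axis.

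The choice of members compared temperatures within each harvest time and left the difference between harvest times, averaged over both temperatures, unfixed in direction. That difference was tested for all genes with edgeR, at a Benjamini-Hochberg adjusted p below 0.05. The level of at least 8 was still part of the choice, and some members reached it at only 1 harvest time. OsR498G0816438400.01 had levels of 12.86 and 11.25 in NT12 and CT12 but 1.73 and 4.78 in NT24 and CT24. OsR498G1220866400.01 reached it in CT24 alone, at 9.33. OsR498G0612408600.01 and OsR498G0409483700.01 reached it only at ZT12, with CT24 levels of 7.75 and 7.32. OsR498G0100469500.01 reached it only at ZT24, with an NT12 level of 7.79. In OsR498G1220946600.01 and OsR498G0101540500.01 only NT12 reached it, and the CT24 levels were 7.48 and 6.61. For such members the test is not independent of the choice, and their adjusted p-values below are a description only. Among the members, 33 of 78 were lower at ZT24, where 25.5% of all genes tested were, and 21 were higher, where 27.3% of all genes were. These shares of all genes are given for scale, and no excess or lack is read from them. The genes tested include genes that never reached the level of 8, and the shares among genes at that level were not computed. The level minimum alone could therefore shift this comparison. The 33 ranged from -9.03 to -0.65 on the log2 scale with a median of -2.86, and the 21 from 0.58 to 4.96 with a median of 1.51. Over all 78 members the median was -0.02, and over all genes tested it was 0.05. Of the 47 members without overlap, 25 were lower and 17 higher, and of the 31 with overlap 8 were lower and 4 higher. Whether members differ from other genes in this respect was not tested.

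The largest falls in this average were those of OsR498G0816438400.01, -9.03 (SE 0.22, edgeR adjusted p = 1.38e-10), and OsR498G0612408600.01, -8.54 (SE 0.13, edgeR adjusted p = 6.33e-12). The 3 libraries of NT24 and the 3 of CT24 all lay under every ZT12 library in both genes. OsR498G0409483700.01 fell by 8.02 (SE 0.23, edgeR adjusted p = 3.42e-10) and OsR498G0101838600.01 by 4.41 (SE 0.15, edgeR adjusted p = 1.01e-09). The largest rises were those of OsR498G1220866400.01, 4.96 (SE 0.75, edgeR adjusted p = 0.000172), and OsR498G0100469500.01, 2.91 (SE 0.29, edgeR adjusted p = 5.82e-06). The rise of OsR498G1220866400.01 depends on the 13 reads of CT12 replicate 2, the only CT12 library with any, and became 7.78 without it.

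The remaining named members differed less in the average over temperatures. OsR498G1220946600.01 fell by 1.90 (SE 0.31, edgeR adjusted p = 0.00027) and OsR498G0305340600.01 by 1.60 (SE 0.23, edgeR adjusted p = 9.73e-05). OsR498G1019102900.01 rose by 0.73 (SE 0.26, edgeR adjusted p = 0.0334), a call that was lost when any of 6 libraries was left out. OsR498G0101540500.01 had a difference of -2.50 (SE 1.05, edgeR adjusted p = 0.0655) and did not pass the test; it was -0.92 without CT12 replicate 1 and -3.67 without CT24 replicate 3.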

How the data were processed

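The authors deposited 1 table of raw counts per gene with a column for each of the 12 libraries, and per the submitters' processing notes reads were aligned with HISAT2 2.0.4. How reads were counted, and on which genome build, annotation and strand setting, is not stated in these sources. Counts were divided by median-of-ratios size factors over the 22389 genes above 0 in every library to choose the members, with a pseudocount of 1. For tests, the same counts entered edgeR 4.0.16 (R 4.3.3): expression filter (minimum count 10, minimum total 15, leaving 24700 genes), TMM scaling, 1 mean per group, quasi-likelihood fit to all 12 libraries without a block, and Benjamini-Hochberg adjustment over all genes. The standard error (SE) of a log2 difference was derived from the F statistic. Averaging over temperatures gave each group equal weight. The test of harvest time was tried on simulated data. These held differences between harvest times only, with no chilling effect and no pattern shared by libraries, so genes with such features were not covered.

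Libraries of a group differed by far more than sampling noise (chi-square per gene of 25.5 to 139), and each was counted separately. The members, comparisons and lists were chosen with earlier results of these data known. Named members were, by rule, the 2 with the largest fall at ZT12, rise at ZT24, difference between responses, mean level, and called rise and fall from ZT12 to ZT24. Alternatives were other scalings, no filter, DESeq2 1.42.0, limma-voom (limma 3.58.1), a replicate block, other settings of the choice, and leaving out each library.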

Additional observations from a re-analysis of the deposited data

How the results depend on the processing

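The number of members depended on the choices behind it. It was 78 as described, 281 when libraries were scaled by their totals (74 of the 78 among them), 186 when group medians replaced means (58 among them) and 24 with a change of at least 1.5 at both times. With 1 library left out it ranged from 72 to 126, highest without CT12 replicate 2, and 37 of the 78 met the choice each time, 32 of them members without overlap between libraries. That last count was chosen after seeing the data, as was the count in members without overlap. With TMM scaling, upper-quartile scaling, a pseudocount of 0.5, and level minimums of 7 and 9 it was 79, 113, 79, 110 and 55. The counts of members and of all genes called in the average over temperatures stayed within 1.5 times under each alternative run. So did those of members called lower at ZT12, higher at ZT24 or with a higher response at ZT24. The counts of members at least 2-fold lower in NT24 than in NT12, and at least 2-fold higher in CT24 than in CT12, also did. These last 2 were rerun only with TMM scaling, library totals, a pseudocount of 0.5 and each library left out. The classes that combine both temperatures were not recounted. The 2 members called higher in NT24 than in NT12 became 4 with limma-voom or without CT12 replicate 2, and 1 without NT12 replicate 2. Library totals moved the counts of all genes called from 4936 to 13080 lower in CT12 (7794 with upper-quartile scaling), from 2283 to 9279 with a higher response at ZT24, from 5736 to 3100 higher and 5161 to 8694 lower in NT24, and from 5018 to 7754 higher and 5379 to 3534 lower in CT24 than in CT12. The median log2 change of the members moved from -1.55 in the edgeR fit to -2.26 at ZT12 under library totals, which shifted the median of all genes to -0.77.

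Same-numbered libraries did not in general deviate together: the correlation of their deviations from group means had a median of -0.12 over 18 pairs. It ran from -0.44 to 0.29, and 4 pairs exceeded 0.1. Over 36 pairs of libraries with different numbers, from different groups, the median was 0.05. The correlation ran from -0.43 to 0.44, and 15 pairs exceeded 0.1. Some pairs of both kinds thus deviated together, and the reason was not tested. With the replicate number as a block, 30 members were lower and 21 higher at ZT24 in the average over temperatures. Of 190 recomputed values for single named members none reversed, 6 lost and 5 gained the call, all in OsR498G1019102900.01 and OsR498G0101540500.01. Low counts limit the folds of members with fewer than 10 normalised counts in a group.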
